A study of Mus musculus with 6 samples.

Results

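Growth factor receptors of the fibroblast growth factor (FGF) and hepatocyte growth factor (HGF) pathways were examined in satellite cells, the stem cells that reside in mouse skeletal muscle, together with the inhibitors that act below them. The set was 10 listed gene symbols, taken by name from both deposited expression tables, out of 24067 symbols that the tables share. Earlier results of these data were known when the 10 were chosen, so shares of all genes set beside them are description only. It holds the ligands Fgf2 and Hgf, the receptors Fgfr1, Fgfr4, Met and Egfr, and the inhibitors Spry1, Spry2, Spred1 and Spred2. Polyadenylated RNA had been sequenced in 4 libraries: activated satellite cells (ASC, kept in culture for 36 h) labelled Yy1_iKo (iKO), ASC labelled Wt (WT), freshly isolated satellite cells (FISC) labelled Yy1_iKo, and FISC labelled Wt. Culture medium was F10 with serum, and the labels give the cells as adult muscle satellite cells without the age of the animals, the driver of the Yy1 deletion or the way it was induced. A further pair of libraries, 1 chromatin immunoprecipitation (ChIP) for the transcription factor YY1 and 1 input, was made from ASC; its titles carry the tag C57, which those of the RNA libraries do not. Every group was 1 library, so no difference given here has a replicate check, a p-value or a standard error, and 2-fold is a rule of size only.

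Satellite cells rest in undamaged muscle and leave that state after injury or isolation. FGF2 bound to heparan sulfate acts through FGF receptors, and HGF acts through MET; both routes pass through adaptors, Ras and the ERK kinases and are known to promote activation and division of satellite cells. Sprouty proteins damp signalling from receptor tyrosine kinases to Ras, and Spred proteins hold neurofibromin at the membrane, where it switches Ras off. In mouse muscle Spry1 is known for its part in the return of satellite cells to quiescence.

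Levels are FPKM, fragments per kilobase of transcript relative to library size, so they are per length and can be set side by side between genes. Ratios are log2 of (FPKM + 1) over (FPKM + 1), taken where the higher of the 2 libraries compared had 1 FPKM or more. Yy1 itself stood at 2.03 FPKM in iKO and 55.2 FPKM in WT ASC, and at 20.1 FPKM in iKO and 51.0 FPKM in WT FISC, log2 ratios of −4.21 and −1.30. The libraries held 10657 to 10947 genes at 1 FPKM or more. In the ASC iKO library the microRNA gene Mir762 was listed at 496241 FPKM, 39.8% of the FPKM sum. The ASC iKO library was the shallower of its pair, at 0.664 reads per WT read by the steps of low values, against 1.00 in FISC. Of 10 satellite cell markers, all 10 had a ratio below 0 in ASC, from −2.03 for Pax7 to −0.09 for Des, beside 50.2% of all genes. At least 2-fold lower were 2, beside 8.26% of all genes. These were Pax7 (6.19 FPKM in iKO and 28.3 FPKM in WT) and Vcam1 (27.6 FPKM in iKO and 62.2 FPKM in WT). In bulk RNA, fewer cells of a type and less RNA per cell cannot be told apart.

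In ASC, 9 of the 10 genes were measured. Of these, 3 were at least 2-fold lower in iKO than in WT, Fgf2, Egfr and Spred2, beside 8.26% of all genes. At least 2-fold higher were 0, beside 8.74% of all genes. Spred2 was far below the rest, with a log2 ratio of −3.45, while the other 8 measured genes lay between −1.33 and 0.46. All 4 receptors had ratios below 0, and Spry1 and Spry2 had ratios above 0. In FISC, 0 of the 9 measured genes passed 2-fold in either direction, beside 0.721% of all genes lower and 0.677% higher. Spred2 differed there by −0.03. Between the states, Met was higher and Fgfr1, Fgfr4, Fgf2, Egfr, Spry1 and Spred1 were lower in ASC in both genotypes.

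**Figure D1:**
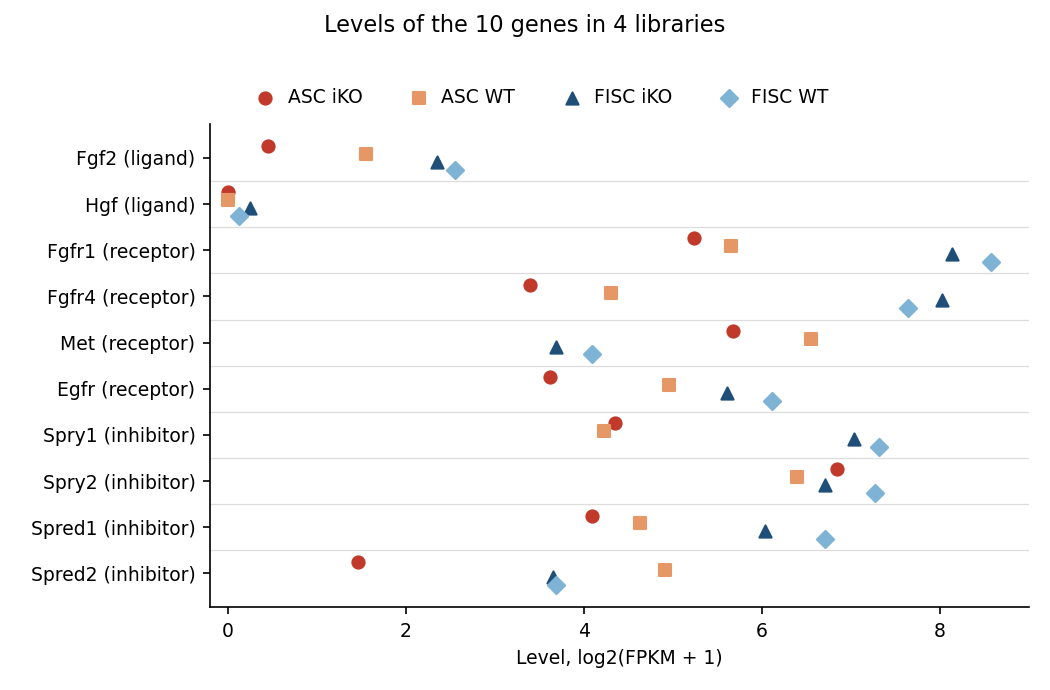
Level of each of the 10 genes as log2(FPKM + 1) on the x axis, with 1 point per library (red circles ASC iKO, orange squares ASC WT, dark blue triangles FISC iKO, light blue diamonds FISC WT) and genes grouped as ligands, receptors and inhibitors down the page. Spred2 has the widest gap between iKO and WT within a state, 1.77 FPKM in ASC iKO and 29.2 FPKM in ASC WT, and Met is the gene whose 2 ASC points both lie well to the right of its 2 FISC points.

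Of the ligands, Fgf2 (chromosome 3, 37247575 to 37303752, mm9), which encodes a heparin-binding growth factor, was low in every library. It stood at 0.370 FPKM in iKO and 1.92 FPKM in WT ASC, and at 4.09 FPKM in iKO and 4.88 FPKM in WT FISC. Its log2 ratio of iKO over WT was −1.09 in ASC, a 2.13-fold lower FPKM + 1, and −0.21 in FISC. The ASC ratio depends on the setting at so low a level: with a pseudocount of 5 it was −0.37, and a filter at 5 FPKM removed the gene. Hgf (chromosome 5, 16059313 to 16125257), which encodes the ligand of MET, was listed at 0 in both ASC libraries, at 0.188 FPKM in iKO FISC and at 0.0883 FPKM in WT FISC, and so did not pass the filter in any comparison. Transcripts of the receptor Met were thus measured in cells where those of its ligand were at or near 0.

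The receptor Fgfr1 (chromosome 8, 26629231 to 26686190), which encodes an FGF receptor tyrosine kinase, stood at 36.7 FPKM in iKO and 49.4 FPKM in WT ASC, and at 280 FPKM in iKO and 381 FPKM in WT FISC. The iKO library was the lower of the pair in each state by nearly the same ratio, −0.42 in ASC and −0.44 in FISC, short of 2-fold. Its locus overlaps that of Gm16159, listed at 0 FPKM in iKO and 0.262 FPKM in WT ASC and at 3.09 FPKM in iKO and 4.23 FPKM in WT FISC. No other gene of the set overlapped another listed locus. Fgfr4 (chromosome 13, 55254179 to 55270120), the other abundant FGF receptor here, stood at 9.52 FPKM in iKO and 18.8 FPKM in WT ASC, and at 259 FPKM in iKO and 199 FPKM in WT FISC. Its ratio was −0.91 in ASC and 0.38 in FISC, so the iKO library was the lower in ASC and the higher in FISC, in neither state by 2-fold. Fgfr1 made up 79.4% of the summed Fgfr1 and Fgfr4 level in iKO and 72.4% in WT ASC, and 52.0% in iKO and 65.6% in WT FISC.

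Met (chromosome 6, 17413957 to 17523980), which encodes the HGF receptor, stood at 49.97 FPKM in iKO and 93.1 FPKM in WT ASC, and at 11.9 FPKM in iKO and 16.02 FPKM in WT FISC. The ratios were −0.88 in ASC and −0.40 in FISC. It was the highest of the 4 receptors in both ASC libraries and the lowest of them in both FISC libraries. Egfr (chromosome 11, 16652206 to 16813910), which encodes the receptor of epidermal growth factor, stood at 11.3 FPKM in iKO and 29.9 FPKM in WT ASC, and at 47.9 FPKM in iKO and 68.3 FPKM in WT FISC. At −1.33, 2.52-fold lower on the FPKM + 1 scale, it was the receptor that passed 2-fold in ASC; in FISC its ratio was −0.50. The summed level of the 4 receptors was 107 FPKM in iKO and 191 FPKM in WT ASC, and 599 FPKM in iKO and 664 FPKM in WT FISC.

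Among the inhibitors, Spred2 (chromosome 11, 19824445 to 19922600) stood at 1.77 FPKM in iKO and 29.2 FPKM in WT ASC, and at 11.6 FPKM in iKO and 11.9 FPKM in WT FISC. The WT library was the higher by far in ASC, and the FISC libraries were nearly level. The ASC ratio of −3.45 was a 10.9-fold lower FPKM + 1, and the iKO level was 6.06% of the WT level. It ranked 14 from the lowest of 11215 genes, and the ASC ratio minus the FISC ratio, −3.41, ranked 16 from the lowest of 10251 genes. Spred1 (chromosome 2, 116946807 to 117008013), its paralogue, stood at 15.98 FPKM in iKO and 23.7 FPKM in WT ASC, and at 64.4 FPKM in iKO and 104 FPKM in WT FISC, ratios of −0.54 and −0.68. Spred2 accounted for 9.95% of the summed Spred1 and Spred2 level in iKO and 55.1% in WT ASC, and for 15.2% in iKO and 10.3% in WT FISC. The paralogues thus stood in opposite order in the 2 ASC libraries, with Spred2 below Spred1 in iKO and above it in WT, while Spred1 was the higher in both FISC libraries.

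Spry1 (chromosome 3, 37538869 to 37543521) stood at 19.4 FPKM in iKO and 17.6 FPKM in WT ASC, and at 129.9 FPKM in iKO and 158 FPKM in WT FISC. Its ratios, 0.13 in ASC and −0.28 in FISC, were small, and the ASC ratio fell below 0 when centred on genes of like locus length (−0.26) or scaled to the FPKM sum without Mir762 (−0.41). Spry2 (chromosome 14, 106291164 to 106296036) stood at 114 FPKM in iKO and 83.0 FPKM in WT ASC, and at 103 FPKM in iKO and 154 FPKM in WT FISC. The iKO library was the higher in ASC, at 0.46, except under scaling to the FPKM sum without Mir762 (−0.11), and the lower in FISC, at −0.57. Spry2 was the most abundant of the 10 genes in iKO ASC and followed Met in WT ASC. The summed level of the 4 inhibitors was 151 FPKM in iKO and 154 FPKM in WT ASC, and 309 FPKM in iKO and 428 FPKM in WT FISC. Set over that sum, the 4 receptors stood at 0.710 in iKO and 1.25 in WT ASC, and at 1.94 in iKO and 1.55 in WT FISC.

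Sequence just around the annotated start is shown for the 4 inhibitors, since these paralogues differed most among themselves and the study mapped YY1. Each line runs 5′ to 3′ on the gene's strand from 100 bases before to 20 bases after the start, from RefSeq on GRCm38.p6, a build other than the mm9 of the loci above. Capitals mark the match to CCATNTT, a core form of the known YY1 motif, which lies on the opposite strand and was the motif match in these 4 windows.
Spred2 (chr11:19924342-19924461, plus strand): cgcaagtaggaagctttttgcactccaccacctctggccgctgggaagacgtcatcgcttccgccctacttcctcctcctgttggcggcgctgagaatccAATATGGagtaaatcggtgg
Spred1 (chr2:117120971-117121090, plus strand): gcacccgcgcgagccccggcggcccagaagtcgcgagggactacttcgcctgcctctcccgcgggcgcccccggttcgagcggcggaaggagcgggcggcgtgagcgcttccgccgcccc
Spry1 (chr3:37639847-37639966, plus strand): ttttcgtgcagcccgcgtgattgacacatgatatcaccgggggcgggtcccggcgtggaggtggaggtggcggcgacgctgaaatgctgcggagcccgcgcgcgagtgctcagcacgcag
Spry2 (chr14:105896800-105896919, minus strand): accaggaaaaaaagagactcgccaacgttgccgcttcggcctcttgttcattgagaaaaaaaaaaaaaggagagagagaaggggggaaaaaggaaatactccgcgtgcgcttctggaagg

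Windows from 250 bases before to 50 bases after the start were matched for 9 of the 10 genes, Hgf with 2 windows and Fgfr1 with none, and searched on both strands. CCATNTT occurred in the window of 1 of the 9 genes, Spred2, where its first letter on the gene's strand is base 1 from the start, and in 16.1% of all 32851 RefSeq windows of that length. GATGGC, the other core form, occurred in 1 window, that of Egfr, at −135 from the start, against 14.1% of all windows. The 4 letters CCAT alone were in the windows of Met, Egfr and Spred2, against 83.1% of all. The longer forms GCCATNTT (6.05% of all windows) and AAGATGGCG (1.4%) were in 0 of the 9. CCAT lies within CCATNTT and that within GCCATNTT, while GATGGC lies within AAGATGGCG, so the counts overlap. A match describes letters in the window and is not a measured site. The Spred2 window was 57% G and C with 17 CpG pairs, against 72.3% and 40 CpG pairs for Spred1, 64.3% and 29 for Spry1 and 62.7% and 28 for Spry2; the median of all windows was 52.7% and 7 CpG pairs.

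Across the set, 9 of the 10 genes passed the filter in ASC, 7 of them with a ratio below 0, and the median was −0.88, against −0.00 over all 11215 genes tested. The 3 genes at least 2-fold lower compare with 8.26% of all genes, and the 0 genes at least 2-fold higher with 8.74%. In FISC, 9 passed the filter and 8 had ratios below 0, with a median of −0.40 against −0.00. The count there was 0 in either direction, beside 0.721% of all genes at least 2-fold lower and 0.677% at least 2-fold higher. Spred1, at −0.68, was the lowest of the set in FISC and Fgfr4, at 0.38, the highest. With 1 library a group, the spread between cultures or animals is unknown, and neighbours in these orders cannot be separated.

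**Figure D2:**
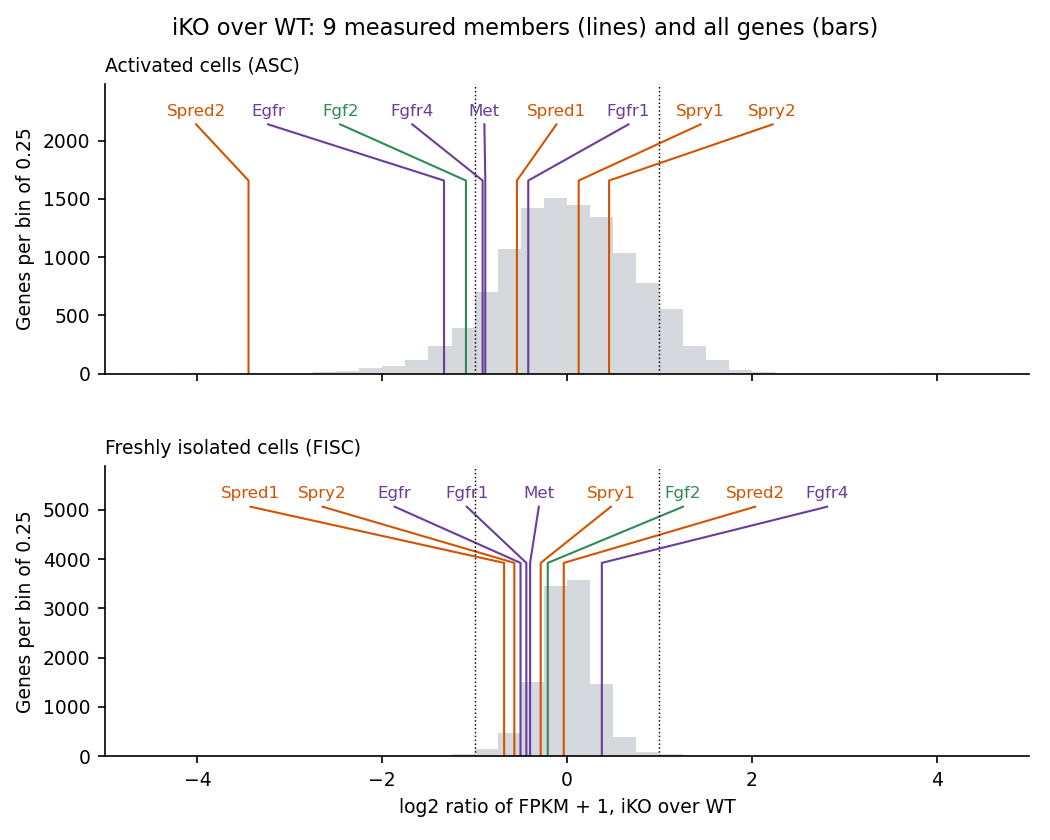
Log2 ratio of FPKM + 1, iKO over WT, on the x axis for the 9 measured genes (lines coloured green for the ligand, purple for receptors, orange for inhibitors) over the number of all genes per bin of 0.25 on the y axis (grey bars), in ASC above and FISC below, with dotted lines at 2-fold. In ASC Spred2 at −3.45 stands outside the bulk of the grey bars, with Egfr and Fgf2 just past the lower dotted line, and in FISC all 9 lines lie between −0.68 and 0.38.

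Subtracting the FISC ratio from the ASC ratio gave a difference that needed both and could be taken for 10251 genes. Fgfr4 (−1.29) and Spred2 (−3.41) were at least 2-fold lower by this measure, beside 7.92% of all genes. Spry2 (1.03) was at least 2-fold higher, beside 8.72%. Fgfr1 differed by 0.02, Spred1 by 0.14 and Spry1 by 0.41. The remaining values were −0.48 for Met, −0.83 for Egfr and −0.89 for Fgf2.

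Ratios in ASC moved with the length of the listed locus over all genes, and the 10 genes differ widely in length. With all measured genes put in 10 bins of equal number by locus length, the median ratio was 0.67 in bin 1, the shortest, and −0.48 in bin 10, the longest. The Sprouty genes are short, 4.65 kb for Spry1 and 4.87 kb for Spry2, and fall in bin 2, whose median was 0.39. Fgfr4 (15.9 kb) falls in bin 4 (0.11), Fgfr1, Fgf2 and Spred1 in bin 8 (−0.31), Met (110 kb) and Spred2 (98.2 kb) in bin 9 (−0.42) and Egfr (162 kb) in bin 10. The set thus holds its 2 ratios above 0 in its 2 shortest genes.

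Relative to its bin, Spred2 was still lower by −3.03 and ranked 3 from the lowest of 1121 genes. Fgfr4, the shortest gene after the Sprouty genes, was lower by −1.03 and came to pass 2-fold. Egfr at −0.85 and Fgf2 at −0.78 no longer passed it. Met stood at −0.47, Spry1 at −0.26, Spred1 at −0.23, Fgfr1 at −0.10 and Spry2 at 0.07. After this centring 2 of the 9 were at least 2-fold lower, beside 6.68% of all genes. In FISC the bin medians ran between −0.04 and 0.04. The part of locus length in the ASC ratios of single genes was not tested.

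**Figure D3:**
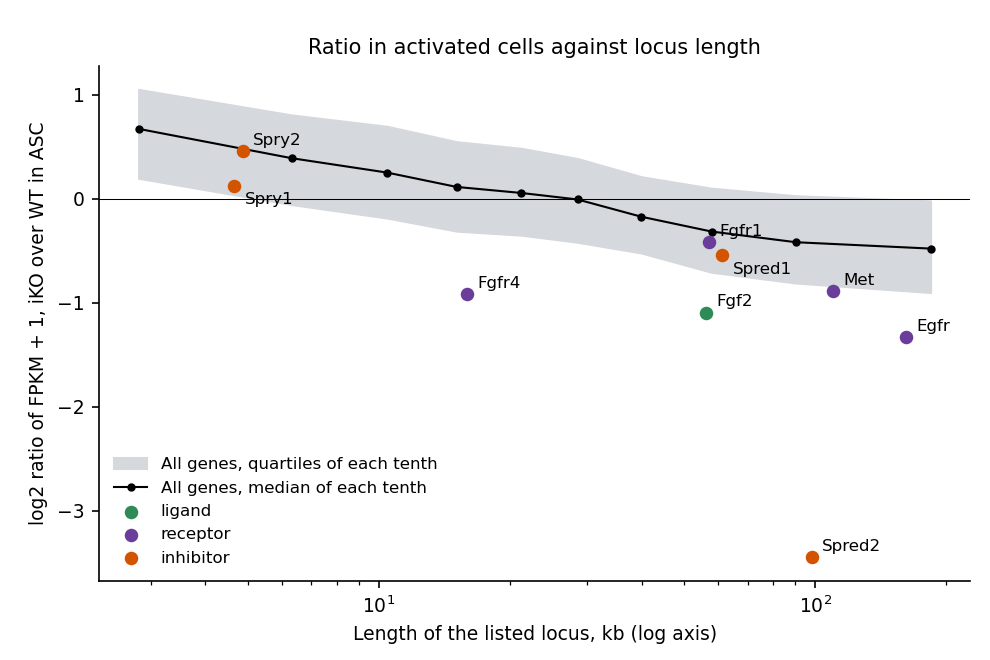
Log2 ratio of FPKM + 1, iKO over WT in ASC, on the y axis against the length of the listed locus in kb on a log axis, with 1 coloured point per measured gene of the set. The black line joins the medians of all genes in 10 bins by length and the grey band spans their quartiles; Spred2 lies far below the band, Fgfr4, Fgf2, Egfr and Met lie under it, and Spry1, Spry2, Fgfr1 and Spred1 lie inside it.

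Between states, ASC was set against FISC within each genotype after scaling both libraries to a median ratio of 1, with a factor on ASC of 0.702 in iKO and 0.718 in WT. The tables of the 2 states may have been normalized separately, so these values are description only. They share libraries with the ratios above and are not separate evidence on them. Met, listed at 49.97 FPKM in iKO ASC against 11.9 FPKM in iKO FISC and at 93.1 FPKM in WT ASC against 16.02 FPKM in WT FISC, was higher by 1.48 in iKO and 2.00 in WT. It was the 1 gene of the set at least 2-fold higher, in either genotype, beside 22.5% of all genes in iKO and 19.4% in WT. Scaled to the FPKM sum, of which Mir762 takes a large share in ASC iKO, its value in iKO was 0.79, short of 2-fold. In WT, Spred2 also came to be at least 2-fold higher with no rescaling (1.23) and under the FPKM sum (1.34), where Spry2 (−0.88 and −0.77) was no longer 2-fold lower, nor was Fgf2 (−0.94) under the sum.

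In each genotype 7 of the 9 measured genes were at least 2-fold lower in ASC, beside 27.2% of all genes in iKO and 23.2% in WT. The FGF receptors and Spry1 had the lowest values. Fgfr4 was at −5.08 in iKO and −3.79 in WT, ranking 98 from the lowest of 11797 genes and 253 from the lowest of 11816. Fgfr1 was at −3.39 in each genotype and Spry1 at −3.17 in iKO and −3.54 in WT. Spred1 stood at −2.42 in iKO and −2.54 in WT, Egfr at −2.45 in iKO and −1.62 in WT and Fgf2 at −2.01 in iKO and −1.30 in WT. The 2-fold call differed between genotypes for 2 inhibitors. Spred2 was at −2.49 in iKO and 0.77 in WT, and Spry2 at −0.36 in iKO and −1.35 in WT.

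As a result of these shifts the order of the genes by FPKM differed between states. Both FISC libraries ran Fgfr1, Fgfr4, Spry1, Spry2, Spred1, Egfr, Met, Spred2, Fgf2 and Hgf, from high to low. In iKO ASC the order was Spry2, Met, Fgfr1, Spry1, Spred1, Egfr, Fgfr4, Spred2, Fgf2 and Hgf, and in WT ASC it was Met, Spry2, Fgfr1, Egfr, Spred2, Spred1, Fgfr4, Spry1, Fgf2 and Hgf. Met held 46.5% of the receptor sum in iKO ASC against 1.99% in iKO FISC, and 48.7% in WT ASC against 2.41% in WT FISC. Spry2 held 85.5% of the Sprouty sum in iKO ASC against 44.3% in iKO FISC, and 82.5% in WT ASC against 49.2% in WT FISC. These shares are ratios within a library and do not depend on the scaling.

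**Figure D4:**
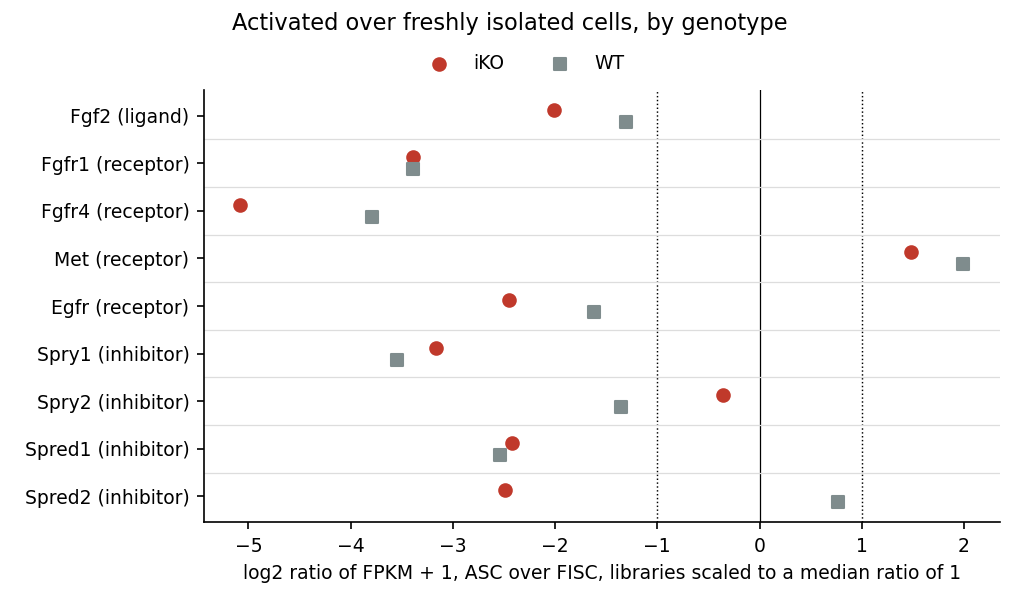
Log2 ratio of FPKM + 1, ASC over FISC, on the x axis for the 9 measured genes (red circles iKO, grey squares WT), with libraries scaled to a median ratio of 1 and dotted lines at 2-fold. Met is the gene to the right of the upper dotted line in both genotypes, and Spred2 shows the widest gap between them, −2.49 in iKO and 0.77 in WT.

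Markers of other cells moved with some of these comparisons. In ASC, 2 of 8 immune markers passed the filter and both were at least 2-fold higher in iKO, beside 8.74% of all genes. These were Cd14 at 9.75 FPKM in iKO and 2.80 FPKM in WT and Cd68 at 5.16 FPKM in iKO and 1.36 FPKM in WT. The list summed to 15.6 FPKM in iKO and 4.23 FPKM in WT, with Ptprc and Adgre1 listed at 0 in both. Of 8 fibroblast markers, 5 passed the filter, 4 of them with a ratio below 0. Col1a1 and Col3a1 were at least 2-fold lower, beside 8.26% of all genes. Dcn, at 5.43 FPKM in iKO and 4.95 FPKM in WT, had a ratio of 0.11. The fibroblast list summed to 20.1 FPKM in iKO and 43.3 FPKM in WT, of which Col3a1 was 11.3 FPKM in iKO and 29.5 FPKM in WT. Pi16 was at 0 in both and Ly6a at 0 in iKO. Tenocyte markers summed to 37.4 FPKM in iKO and 20.2 FPKM in WT, most of it Scx (0.92). Mkx, the other measured tenocyte marker, went the other way, at 1.18 FPKM in iKO and 1.59 FPKM in WT (−0.25). Endothelial and Schwann markers summed to at most 3.18 FPKM. In FISC the sums were 339 FPKM in iKO and 357 FPKM in WT for fibroblast markers and 9.15 FPKM in iKO and 9.94 FPKM in WT for immune markers. Pericyte or smooth muscle markers summed to 175 FPKM in iKO and 201 FPKM in WT ASC and to 667 FPKM in iKO and 708 FPKM in WT FISC, most of it Des, which satellite cells also express. Along with Egfr and the FGF receptors, many markers were at least 2-fold lower in ASC than in FISC. Of all genes, 27.2% in iKO and 23.2% in WT were. In each genotype the markers were 6 of 7 measured fibroblast, 4 of 4 endothelial, 5 of 6 pericyte, 2 of 3 Schwann and 8 of 10 satellite cell markers. Of immune markers it was 1 of 3 in iKO and 2 of 3 in WT, and of tenocyte markers 1 of 3 in each. The part of any other cell type in the values of the 10 genes was not tested.

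Relatives of the 10 genes were mostly low. Among FGF receptors, Fgfr2 was at most 0.297 FPKM in any library. Fgfr3 stood at 0.750 FPKM in iKO and 1.63 FPKM in WT ASC and at 4.49 FPKM in iKO and 4.12 FPKM in WT FISC, and Fgfrl1, a receptor that lacks the kinase, lay between 6.999 and 9.60 FPKM. Spry4 stood at 11.5 FPKM in iKO and 16.4 FPKM in WT ASC (−0.48) and at 19.1 FPKM in iKO and 17 FPKM in WT FISC (0.16). Spred3 lay between 1.72 and 3.20 FPKM, and Spry3 was listed at 0 in ASC. Of the other ErbB receptors, Erbb2 stood at 7.06 FPKM in iKO and 10.6 FPKM in WT ASC, while Erbb3 was at most 0.755 FPKM and Erbb4 was listed at 0. In ASC none of these relatives passed 2-fold between iKO and WT, so Egfr and Spred2 were the family members that did.

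The wider pathway was read from 13 lists of ligands, receptors, heparan sulfate genes, adaptors, kinases, phosphatases and targets, 146 genes without the 10. In ASC, 105 were measured, of which 15 (14.3%) were at least 2-fold lower and 3 (2.86%) at least 2-fold higher, with 70 below 0 and a median of −0.38. In FISC, 104 were measured, 0 passed 2-fold in either direction and the median was −0.10. These counts describe the lists beside the background of all genes given above and carry no test. Over all genes in ASC, that background moved with locus length. The share at least 2-fold lower was 2.41% in bin 1 and 19.5% in bin 10, and the share at least 2-fold higher was 29.2% and 2.05%. The lists were not centred by locus length, and its part in these counts or in those of single lists below was not tested.

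Outside the cell, 4 of 18 measured heparan sulfate genes were at least 2-fold lower in ASC and 14 were below 0. Ndst1, an enzyme that sulfates heparan chains, stood at 2.67 FPKM in iKO and 22.8 FPKM in WT, and Hspg2, which encodes perlecan, at 16.3 FPKM in iKO and 63.1 FPKM in WT. Sulf2, which removes sulfate, had the highest ratio of the list, 0.78. Of the EGF ligands, Areg was higher, at 23.2 FPKM in iKO and 8.28 FPKM in WT (1.38), while Hbegf had a ratio of −0.43. St14, which encodes a protease known to process pro-HGF, was higher, at 7.32 FPKM in iKO and 1.63 FPKM in WT (1.66). Of the 22 listed genes of the FGF family, 4 were measured in ASC: Fgf2, Fgf11 (0.04), Fgf13 (−0.10) and Fgf21 (−0.01). The rest did not pass the filter there, so they have no ratio.

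Between receptor and Ras, 3 of 14 adaptors were at least 2-fold lower in ASC. Cbl, the ubiquitin ligase that takes active receptors down, stood at 0.608 FPKM in iKO and 9.35 FPKM in WT (−2.69). Plcg1, a phospholipase bound by FGF receptors, had a ratio of −1.48, and Frs2, the docking protein of those receptors, stood at 4.75 FPKM in iKO and 12.1 FPKM in WT (−1.19). Of 15 genes of the Ras to ERK list, 1 was at least 2-fold lower, the scaffold Ksr1 (−1.27), and Hras (0.97) and Map2k2 (0.68) had the highest ratios. Of 9 p38 kinase genes, 0 passed 2-fold.

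Other negative regulators included genes at least 2-fold lower in ASC, 2 of 10 Ras inhibitors and 3 of 10 phosphatases of MAP kinases. Nf1, which encodes neurofibromin, the Ras-inactivating partner of Spred proteins, stood at 3.31 FPKM in iKO and 10.5 FPKM in WT (−1.41), and at 13.6 FPKM in iKO and 15.9 FPKM in WT FISC (−0.21). Dusp4 stood at 3.78 FPKM in iKO and 15.95 FPKM in WT (−1.83) and Dusp5, a phosphatase of ERK, at 14.1 FPKM in iKO and 51.9 FPKM in WT (−1.81). The third phosphatase was Dusp9 (−1.38), whereas Dusp6 had a ratio of −0.19. The list drawn up for ERK output went both ways. Of its 13 measured genes, Elk4 (−1.62) and Fosl1 (−1.17) were at least 2-fold lower. Fos was higher, at 4.59 FPKM in iKO and 1.76 FPKM in WT (1.02). Whether each transcript of the list, Elk4 among them, follows ERK activity was not tested.

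**Figure D5:**
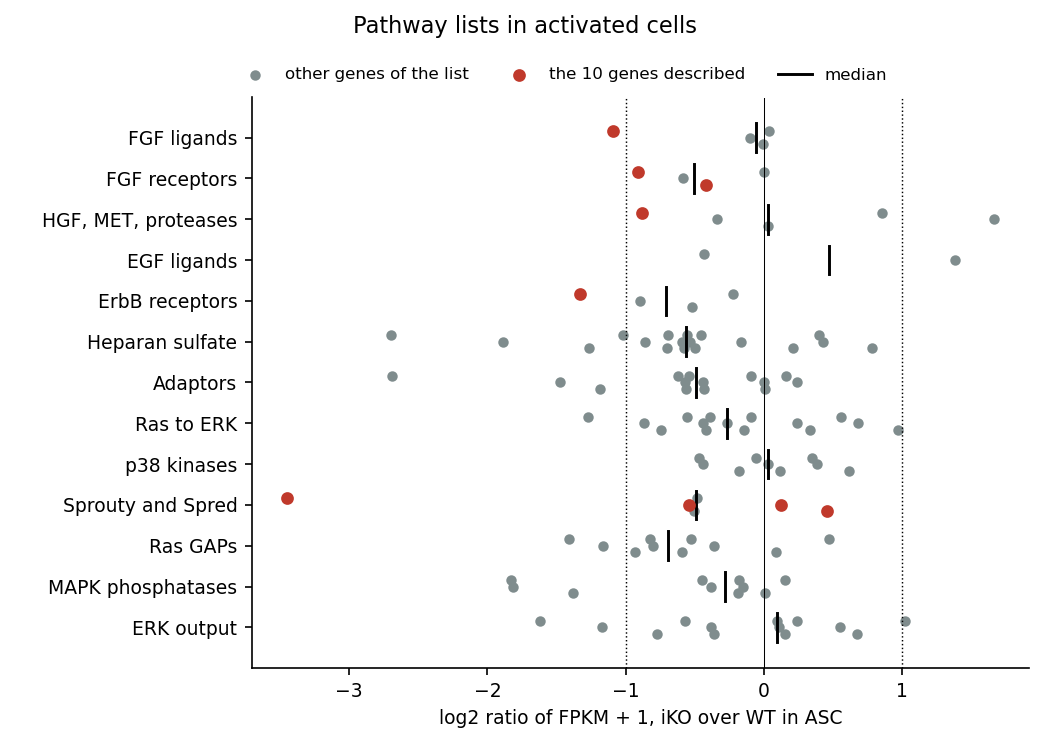
Log2 ratio of FPKM + 1, iKO over WT in ASC, on the x axis for each measured gene of 13 pathway lists down the page (grey points, with genes of the set in red and a black bar at the median of each list, red points included). Spred2 is the lowest point of all lists at −3.45, followed by Ndst1 and Cbl at −2.69, and the 3 points past the upper dotted line are St14, Areg and Fos.

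The genes nearest to each member in pattern were found from log2(FPKM + 1) in the 4 libraries after subtracting each gene's mean, by Euclidean distance among the 9598 genes that reached 5 FPKM in some library. With 4 libraries such likeness is easily met: 118 genes lay within 0.5 of Fgfr1 and 258 within 0.5 of Spry2. Spred2 had 6 such neighbours and Fgfr4 had 20, the fewest of the 8 genes that could be placed. Near to Spred2 were Arhgap5 at a distance of 0.279 and Clcn5 at 0.337. Arhgap5, which encodes a GTPase-activating protein, stood at 1.39 FPKM in iKO and 18.8 FPKM in WT ASC and at 8.27 FPKM in iKO and 8.50 FPKM in WT FISC. Nearest to Fgfr4 were Tnfaip3 at 0.0708, Zim1 at 0.314 and Igf2 at 0.314. For the others the nearest gene was Serinc5 for Fgfr1 (0.0944), Prmt5 for Met (0.132), Ahnak for Egfr (0.0958), Adcy2 for Spry1 (0.127), Pdpn for Spry2 (0.140) and Samd4 for Spred1 (0.114). Fgf2 and Hgf were under the 5 FPKM floor.

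YY1 peaks in ASC were compared with the positions of the 10 genes, using the authors' list of 2031 peaks from 1 ChIP library with 1 input. A summit lay within 2 kb of either end of the locus for 0 of the 10 genes, beside 3.62% of all 24450 listed genes that were placed. Within 10 kb of an end there was 1, Fgfr4, beside 6.71% of all genes. Within 50 kb there were 2, Fgfr4 and Fgf2, beside 16.8%. Summits inside the 10 loci numbered 0, a count for which no share of all genes was taken. The peak near Fgfr4 has its summit at 55275713 on chromosome 13, 5.59 kb from the locus, with the authors' fold of 3.62, −log10 p of 4.08 and −log10 q of 0. That near Fgf2 is 14.1 kb away with a fold of 4.01 and a −log10 q of 0.329. For the other 8 genes the nearest summit was 305 to 1645 kb away, at 305 kb for Spry1 and 1558 kb for Spred2. Of the 171 peaks with a −log10 q of at least 5, 0 were within 2 kb of an end of any of the 10 loci, beside 0.945% of all genes. The list comes from 1 library, so a gene with no peak in it is one for which none was listed at this depth.

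Of genes of the set on the same chromosome, Fgf2 and Spry1 are 235 kb apart on chromosome 3 and had ASC ratios of −1.09 and 0.13. Spred2 and Egfr are 3011 kb apart on chromosome 11 and had ASC ratios of −3.45 and −1.33.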

How the data were processed

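RNA and ChIP libraries were sequenced as paired ends, per the labels' protocols. The authors deposited FPKM per gene in 1 table per state, iKO and WT side by side, per the file headers, and 1 peak list in the narrowPeak layout with each peak's fold over background, −log10 p and −log10 q, all the authors' own values. TopHat2, Cufflinks 2.2.1, MACS2 2.1.0 and mm9 are named in the submitters' processing notes, without roles. The sources used here do not give the annotation, the strand setting, filters or scaling. A column was tied to its library by the state that names its table and by Wt or Ko in the header, and 0 columns of other samples were found. Starts were read as 0-based and printed 1-based.

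Computed here, with Python 3.11.15, pandas 2.3.3, numpy 2.4.6 and matplotlib 3.10.9, were log2 ratios with a pseudocount of 1 FPKM, which understates low genes, a filter of 1 FPKM in the higher library and a size rule of 2-fold. FPKM carries no total depth, so no interval or detection floor is given. Relative depth was read from the steps of values up to 0.3 FPKM, which 18.5% of 1573 genes in ASC and 28.0% of 1542 in FISC met within 2%. The ratio, count and median scaling steps were tested on simulated data. RefSeq windows were found to read along the gene, since TATAAA occurred in 1.95% of plus-strand windows as given and 0.483% when turned.

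Genes named beyond the 10 were their family members, the 2 highest and 2 lowest of each pathway list by iKO over WT in ASC and again in FISC, markers at 1 FPKM or more, and the 3 nearest in pattern; a few others at or near 0 were named to account for a list. Some genes that this rule takes in are not reported here. Mir762, Gm16159, Frs2 and Dusp9 were named after their values were seen. The 10 genes and all lists were chosen with earlier results of these data known. Alternatives were the pseudocount, the filter, the scaling, centring by locus length, the size rule, the peak window and the peak q.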

Additional observations from a re-analysis of the deposited data

Results flagged for a closer look

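Fgfr4 had opposite signs in the 2 states, iKO over WT being −0.91 in ASC and 0.38 in FISC, a difference of −1.29 that was not tested. Spry1 went the other way, 0.13 in ASC and −0.28 in FISC, a difference of 0.41 that was not tested. Its ASC part was −0.26 centred by locus length and −0.41 under the FPKM sum without Mir762. Spry2 stood at 0.46 in ASC and −0.57 in FISC, a difference of 1.03, also not tested, whose ASC part was −0.11 under the FPKM sum without Mir762. Spred2 was lower in ASC than in FISC in iKO (−2.49) and higher in WT (0.77), a difference of −3.26, not tested. Each of these compares single libraries, and the spread between samples is unknown.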

How the results depend on the processing

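Of 284 alternative values for single genes, 259 kept their sign and their side of the size rule, 2-fold except at the 1.5-fold setting. Another 5 small values turned sign without passing it, and 9 no longer passed it. The rule was newly passed by 11, of which 4 were at 1.5-fold with values unchanged, and 0 passed it in the other direction. A filter or size rule cannot change a gene's value. The 18 values with no filter, the 32 with a filter at 5 FPKM and those at 1.5-fold thus repeat the main ones. In ASC the count of genes at least 2-fold lower in iKO was 3. It was 2 with a pseudocount of 5 FPKM, beside 2.73% of all genes, and 2 with a filter at 5 FPKM, beside 8.19%. Centred by locus length it was also 2, Spred2 and Fgfr4, beside 6.68%. At 1.5-fold it was 5, with Fgfr4 and Met added, beside 20.2% of all genes. It was 6, with Fgfr4, Met and Spred1 added, with both libraries scaled to the same FPKM sum without Mir762, a choice made after the sums were seen. That scaling moved the median of all genes to −0.49 and put 21.8% of them at least 2-fold lower and 1.48% higher. In FISC the count was 0, and 1 at 1.5-fold, Spred1, beside 4.11% of all genes. The count of genes with a peak was 0 within 2 kb, 1 within 10 kb and 2 within 50 kb. Spred2 in ASC ran from −3.97 to −2.34 over its alternatives and passed 2-fold in each. The signs that turned were those of Spry1 and Spry2 in ASC as given above, of Spred2 in FISC (0.02 under upper-quartile scaling) and of Spry2 in ASC over FISC in iKO (0.15 with no rescaling). Without rescaling, the median ASC over FISC ratio of all genes was 0.38 in iKO and 0.40 in WT; scaled to the FPKM sum it was −0.63 in iKO and 0.50 in WT, and Met at 0.79 in iKO no longer passed 2-fold. Total depth is unknown, so the precision of low genes such as Fgf2 and Hgf cannot be given. No paired analysis was possible because each group was 1 library.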
